A study of Drosophila melanogaster with 12 samples.

Results

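The genes described here are the Drosophila melanogaster genes on chromosome arm 2L whose listed symbol is CR followed by digits, the prefix that fly annotation gives to genes without an annotated protein. The deposited tables list 106 such genes on 2L. CR43263 was left out by the rule that chose the set, which left 105, and a floor of at least 10 counts in 3 or more of the 12 libraries kept 99 of the 12982 genes with counts in every library. The other 6 fell below the floor. CR43717, CR43927 and CR43825 lay just inside it, each with a third-highest library count of 10. CR42874 lay just outside it at 8, and CR43801 and CR17024 at 7. Of the 99 members, 98 also passed the abundance filter of the statistical test, and CR43927 did not.

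RNA was measured by polyA-selected sequencing of whole flies of the Canton S background, as adults 10 to 11 days old. There were 4 groups of 3 libraries each. The wildtype flies carried no labelled mutation and had no obese parent. The other groups were all labelled AKHR +/-, heterozygous at the gene for the adipokinetic hormone receptor, and divided by parental obesity into het (neither parent obese), paternal (the father obese) and maternal (the mother obese). The nature of the AKHR allele, the way parental obesity arose, the sex of the flies and the number of flies per library are not stated in the labels. Depth was 17212029 to 21370713 listed reads per library. The series describes 1 set of samples per experimental replicate, and a p-value here reflects only how much these libraries vary.

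Long noncoding RNAs are transcripts without a long reading frame, and in flies many are read only in one tissue. Antisense RNAs are transcribed from the strand opposite another gene and can share sequence with its exons. Pseudogenes are decayed copies of other genes, and some are still transcribed. Adipokinetic hormone acts on its receptor in the fat body to mobilise stored fat and glycogen, in a role much like that of glucagon in mammals.

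The name CR did not mark a single kind of gene. In current RefSeq names, matched by symbol or synonym, 68 members are long noncoding RNAs, 16 are antisense RNAs and 11 are pseudogenes. CR18854 is a hairpin RNA gene, known as a source of endogenous small interfering RNAs. CR43708 is the small nuclear RNA gene snRNA:LU, and CR43344 is the let-7 complex transcript, from which microRNAs including let-7 and miR-125 are processed. CR17567 and CR43610 are now annotated as the protein-coding genes CG46059 and CG43610, so the label noncoding does not hold for these 2 members in the current annotation.

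Many members lie in or beside other genes. On the deposited coordinates (D_melanogaster_Apr_2006, dm3), 46 members overlapped another listed gene and 53 did not. The overlapping gene was on the opposite strand for 35 members and on the same strand for 11. Of the 35 members lying wholly inside another gene, 8 were on its strand. Whether counting used the strand is not given in the sources available. Reads from stretches that a member shares with an exon of an overlapping gene therefore cannot be told apart. For members in an intron, the part of reads that came from the surrounding gene was not tested. No member had the same counts as a gene it overlapped. In the current BDGP6 annotation, where 95 members were matched by identifier, 53 lay between genes, 22 overlapped an exon of another gene and 20 lay in an intron of one.

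Most members were scarce. The median mean count was 41.5 per library, against 479.2 over the 12809 genes tested. Measured per length, as the authors' deposited FPKM, the median level was 3.47, against 13.2 over the genes tested, and single members ranged from 0.0377 for CR43314 to 872 for CR17567. The level was below 1 FPKM in 14 members, between 1 and 10 in 63 and at least 10 in 22. Members were also short, with a median gene model of 685 bases against 1763. Together they took 0.147 to 0.162% of the listed reads of a library.

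**Figure D1:**
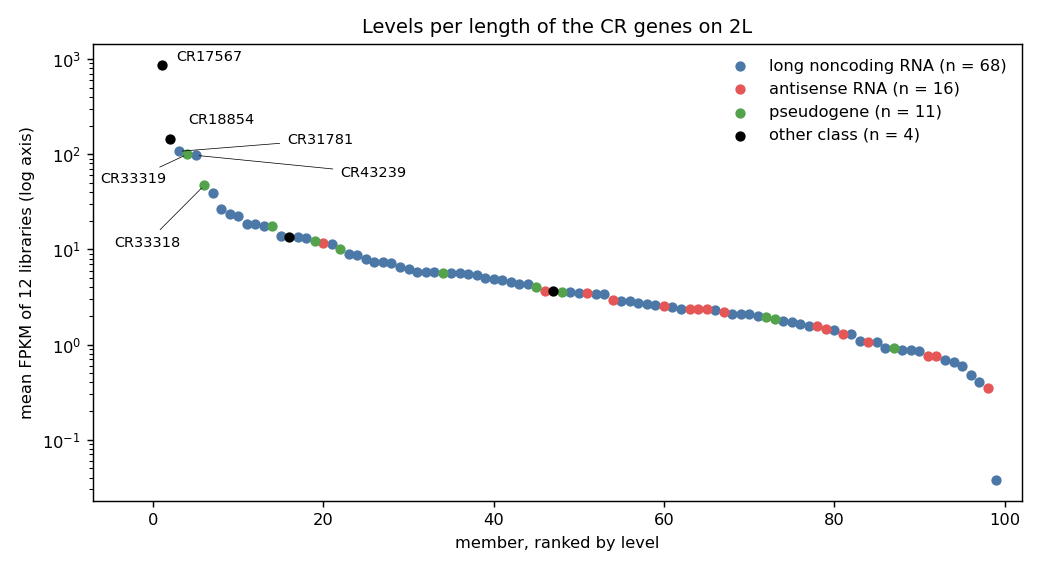
Mean FPKM over 12 libraries (vertical axis, log scale) of the 99 CR genes on 2L, ranked by level (horizontal axis), with 1 point per member coloured by its current RefSeq class. CR17567 stands highest at 872 FPKM, 5 others are named from 146 down to 47.0 FPKM, and 63 members fall between 1 and 10.

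A few members supplied most of the reads. CR17567, CR18854 and CR31781 together took 65.1 to 66.9% of the members' reads in each library. CR17567 (2L, positions 19183093 to 19183613, minus strand) had a mean of 872 FPKM, the highest of the set. CR18854, the hairpin RNA gene, followed at 146 FPKM, and the long noncoding RNA CR31781 had 107 FPKM. The pseudogene CR33319 had 99.7 FPKM, the long noncoding RNA CR43239 97.5 FPKM and the pseudogene CR33318 47.0 FPKM. RefSeq lists the same former symbol for CR33318 and CR33319, and the counting of reads that match more than 1 copy is not described in the labels, so the split of reads between this pair is uncertain.

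None of the 6 members of highest FPKM passed edgeR's test in any comparison of groups when groups alone were fitted. CR18854 had a level, in CPM (counts relative to library size, scaled between libraries by TMM), of 388 ± 11.9 (SD, n = 3) in wildtype, 366 ± 8.12 in het flies, 368 ± 4.63 in paternal and 376 ± 1.68 in maternal flies. Its highest library was only 1.09 times its lowest. CR31781 stood at 276 ± 12.1, 274 ± 11.7, 268 ± 14.7 and 272 ± 5.64 CPM in the same order. CR33319 gave 59 ± 2.12, 60.8 ± 4.81, 57.7 ± 2.02 and 59 ± 3.12 CPM. In the edgeR comparison of all AKHR +/- groups with wildtype, the log2 changes of these 3 members were -0.07 (SE 0.0349), -0.03 (SE 0.042) and 0.00 (SE 0.0498), with adjusted p of 0.375, 0.827 and 0.991. Across the whole set the ratio of the highest to the lowest library had a median of 1.69, and it was above 2 in 37 members and above 4 in 5.

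The targeted gene lies on the same arm. AkhR, listed as GRHR at 2L positions 6711286 to 6716186, read 84.7, 77.3 and 84.8 CPM in the wildtype libraries. It read 84.3, 71.6 and 81.1 CPM in het flies, 80.8, 73.7 and 80.8 in paternal and 84, 75 and 80.4 in maternal libraries. All groups overlapped. The log2 change of the AKHR +/- groups against wildtype was -0.06 (SE 0.0527, adjusted p = 0.664 in edgeR), and since the lesion is not described in the labels, this level does not check the labelled genotype.

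Against wildtype, the same 2 members passed the edgeR threshold of adjusted p 0.05 in each AKHR +/- group. CR43821 was higher and CR43142 was lower in all 3 of them. That is 2 of 98 members in each comparison, or 2.04%. Of all genes tested, 0.593% passed in het flies, 0.203% higher and 0.39% lower. In paternal flies 0.523% passed, 0.156% higher and 0.367% lower, and in maternal flies 0.344% passed, 0.156% higher and 0.187% lower. On arm 2L the shares were 2.16%, 2.08% and 1.34%. DESeq2 called 4, 3 and 2 members, where it called 0.932%, 0.869% and 0.713% of all genes. The 3 comparisons share the wildtype libraries, so they are not independent of each other.

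CR43821 is a long noncoding RNA gene of 490 bases on the plus strand (2L, positions 2797832 to 2798321). It lies wholly inside Syt1, the gene of the synaptic vesicle calcium sensor synaptotagmin, on the opposite strand, and in an intron in BDGP6. Its counts in the 3 wildtype libraries were 1, 5 and 2, or 0.0514, 0.269 and 0.102 CPM. It met the count floor only through the AKHR +/- libraries, where it is high. Its place in the set, and each count of members that includes it, therefore depends on that rise. The het libraries read 2.42, 2.80 and 2.25 CPM, the paternal libraries 2.42, 1.58 and 2.13, and the maternal libraries 2.62, 2.24 and 1.83. Every AKHR +/- library was above every wildtype library, and the lowest of the 9 held 27 counts. The log2 change was 4.11 (SE 0.361, edgeR adjusted p = 2e-06) in het flies, 3.83 (SE 0.376, adjusted p = 1.24e-05) in paternal and 3.94 (SE 0.372, adjusted p = 4.23e-06) in maternal flies. Over the 3 groups together it was 3.96, with a 95% interval from 3.27 to 4.64, a ratio of 15.5 that rests on 8 reads in all of the wildtype libraries. Leaving out wildtype replicate 2, which held 5 of those reads, gave a log2 change of 4.76, and leaving out wildtype replicate 1 gave 3.575.

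Syt1 itself did not pass the test. It read 146 ± 2.47 CPM in wildtype, 124 ± 7.08 in het flies, 128 ± 3.45 in paternal and 119 ± 20.8 in maternal flies, a log2 change over the 3 groups of -0.24 (SE 0.0754, edgeR adjusted p = 0.153). Per length, CR43821 had a mean of 0.284 FPKM in wildtype flies, where Syt1 had 16, and 4.19 to 5.1 FPKM in the AKHR +/- groups, where Syt1 had 13.2 to 14.2.

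CR43142 is a pseudogene between genes (2L, positions 6972243 to 6972796, plus strand), with its midpoint 0.259 Mb from that of AkhR. The wildtype libraries read 15.1, 14.1 and 13.2 CPM. The het libraries read 7.75, 8.39 and 8.99 CPM, the paternal libraries 8.47, 7.82 and 8.24, and the maternal libraries 8.31, 7.86 and 8.91. Each AKHR +/- library lay well below the lowest wildtype library, and the ranges of the 3 AKHR +/- groups overlapped. The log2 change was -0.75 (SE 0.0869, edgeR adjusted p = 7.76e-05) in het flies, -0.79 (SE 0.087, adjusted p = 4.71e-05) in paternal and -0.76 (SE 0.0874, adjusted p = 6.8e-05) in maternal flies. Its nearest listed gene, uif, encodes a large transmembrane protein of epithelia and lies 31 bases away on the minus strand. The log2 change of uif over the 3 groups was -0.26 (SE 0.0775, edgeR adjusted p = 0.119).

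**Figure D2:**
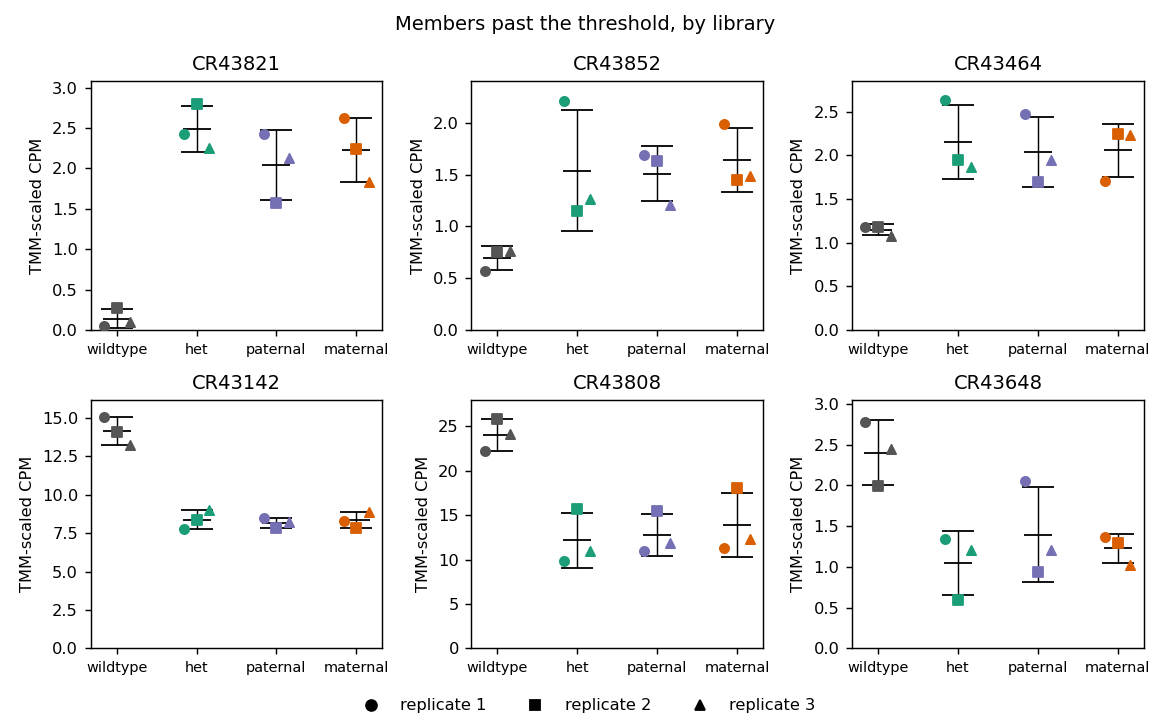
TMM-scaled CPM (vertical axes, from 0) of the 6 CR genes on 2L that passed edgeR's threshold, in wildtype, het, paternal and maternal flies (horizontal axes), with 1 symbol per library shaped by replicate number and bars at the mean and 1 SD (n = 3). The 3 upper genes lie higher and the 3 lower genes lower in the AKHR +/- groups. In CR43648 the highest paternal library, at 2.05 CPM, lies above the lowest wildtype library, at 1.99 CPM.

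When the mean of the 3 AKHR +/- groups was compared with wildtype, 6 of the 98 members passed, 3 higher and 3 lower. Besides CR43821 and CR43142 these were CR43852 and CR43464, which were higher, and CR43808 and CR43648, which were lower. The 6 members are 6.12% of those tested, against 1.49% of all genes tested (0.515% higher and 0.976% lower) and 4.56% of genes tested on 2L. Among CR genes of the other large arms with the same floor, 1 of 231 passed, or 0.433%. DESeq2 also called 6 members, with 1.89% of all genes. An unadjusted edgeR p under 0.05 was met by 20 members, or 20.4%, against 14.6% of all genes and 20.05% of genes tested on 2L.

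The count of 6 depended on the wildtype libraries. Without wildtype replicate 1 or 3 it was 2, CR43821 and CR43142, and without wildtype replicate 2 it was 3, with CR43648 added. The count over all genes moved too, from 191 to 78, 63 and 99 without wildtype replicate 1, 2 and 3, to 119 without paternal replicate 1, and to 360 and 314 without maternal replicate 1 and 3.

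CR43852 is a long noncoding RNA gene of 252 bases (2L, positions 2646030 to 2646281, plus strand). It read 0.565, 0.753 and 0.766 CPM in wildtype, 2.21, 1.15 and 1.26 in het flies, 1.68, 1.63 and 1.20 in paternal and 1.99, 1.44 and 1.48 in maternal libraries. The wildtype libraries were the 3 lowest. Its log2 change over the 3 groups was 1.15 (SE 0.249, edgeR adjusted p = 0.0211), and leaving out any 1 wildtype library raised the adjusted p to between 0.0721 and 0.138.

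CR43464 is an antisense RNA (2L, positions 2000058 to 2003935, plus strand) lying wholly inside CG33543, which is on the other strand. It read 1.18, 1.18 and 1.07 CPM in wildtype, 2.64, 1.95 and 1.86 in het flies, 2.47, 1.69 and 1.95 in paternal and 1.71, 2.24 and 2.23 in maternal libraries. Here too the wildtype libraries were the 3 lowest. The log2 change over the 3 groups was 0.86 (SE 0.183, edgeR adjusted p = 0.0195), and it lost the call without any 1 wildtype library, with an adjusted p between 0.0848 and 0.112. CG33543 read 13.4 ± 0.489 CPM in wildtype and 12.5 ± 0.857, 12.5 ± 0.843 and 12.7 ± 0.331 in the het, paternal and maternal groups, a log2 change of -0.10 (SE 0.0627, edgeR adjusted p = 0.498).

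CR43808, a long noncoding RNA (2L, positions 5904958 to 5906250, minus strand), had a mean of 13.3 FPKM. It read 22.2, 25.8 and 24.1 CPM in wildtype, 9.79, 15.7 and 11.0 in het flies, 10.9, 15.5 and 11.8 in paternal and 11.3, 18.0 and 12.3 in maternal libraries. No AKHR +/- library reached the wildtype range, and replicate 2 was the highest of each group. The log2 change over the 3 groups was -0.89 (SE 0.165, edgeR adjusted p = 0.0327). It did not pass without wildtype replicate 1, 2 or 3, het replicate 3, paternal replicate 1 or 3, or maternal replicate 3. The adjusted p was then between 0.0576 and 0.193. It passed in 10 of the 17 alternatives tried. Among these were the edgeR fit with replicate number as a block (adjusted p = 7.15e-08) and DESeq2 (adjusted p = 0.00082).

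CR43648 is a long noncoding RNA gene (2L, positions 606041 to 606571, plus strand). The wildtype libraries read 2.77, 1.99 and 2.45 CPM, and the het libraries 1.34, 0.599 and 1.21 CPM. The paternal libraries read 2.05, 0.934 and 1.20 CPM, and the maternal libraries 1.37, 1.29 and 1.03. The ranges of wildtype and paternal flies overlap. Its log2 change over the 3 groups was -0.98 (SE 0.211, edgeR adjusted p = 0.0203), and it did not pass without wildtype replicate 1 (adjusted p = 0.146) or 3 (adjusted p = 0.0933).

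**Figure D3:**
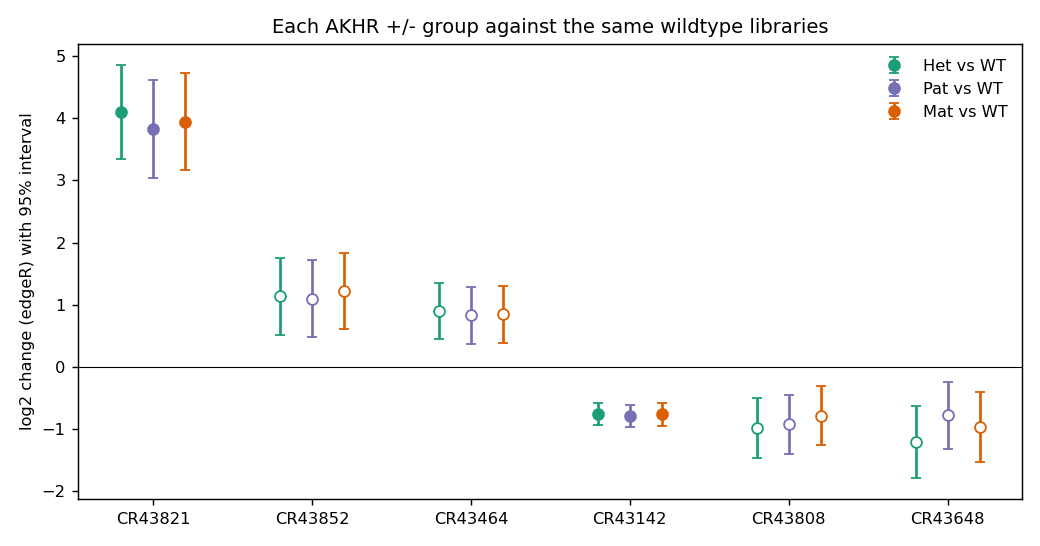
Fitted log2 change with its 95% interval (vertical axis) of the 6 members past the threshold (horizontal axis) in the het, paternal and maternal groups, each against the same wildtype libraries, with filled points where the adjusted p was under 0.05 in that comparison. CR43821 sits near 4 and CR43142 near -0.8 in all 3 comparisons, and the other 4 members have open points on the side of 0 that they have over all groups.

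In the single comparisons these 4 members did not pass when groups alone were fitted in edgeR to all 12 libraries. DESeq2 called CR43648 and CR43808 in het flies and CR43808 in paternal flies. An edgeR fit of only the libraries compared called CR43464 and CR43648 in het flies, and CR43808 and CR43852 in paternal flies. Neither called any of the 4 in maternal flies. The values that follow are from the edgeR fit of all libraries. CR43852 had log2 changes of 1.14, 1.10 and 1.23 in the het, paternal and maternal groups, with edgeR adjusted p of 0.1, 0.135 and 0.0899. CR43464 had 0.90, 0.83 and 0.85, with adjusted p of 0.0667, 0.122 and 0.127. CR43808 had -0.98, -0.92 and -0.78, with adjusted p of 0.101, 0.144 and 0.2. CR43648 had -1.21, -0.78 and -0.96, with adjusted p of 0.0524, 0.251 and 0.149.

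With the replicate number as a block in the edgeR fit, more members passed against wildtype. The counts were then 7 in het flies, 4 in paternal and 5 in maternal flies, where 2.22%, 1.61% and 1.77% of all genes passed. The members gained were drawn from these 4 and, in het flies, CR17567. Over the 3 groups together the blocked fit called 7 members and 5.43% of all genes, adding the antisense RNA CR43820, whose log2 change was 0.68 (SE 0.193, adjusted p = 0.0914 without the block).

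The ranges of the libraries were also compared. In 7 of 98 members all 9 AKHR +/- libraries lay above the 3 wildtype libraries, and in 2 members all lay below. Of all genes tested, 3.1% and 2.72% did so, 5.82% in either direction. Among the 2454 genes tested on 2L, 117 lay above and 111 below in this way. The 7 were CR43821, CR43852, CR43464, CR43820, CR43866, CR43718 and CR43669, and the 2 were CR43142 and CR43808. The last 4 of the 7 did not pass the edgeR test, with log2 changes of 0.68, 0.57, 0.47 and 0.45 and adjusted p of 0.0914, 0.352, 0.228 and 0.41.

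Summed levels of organ-specific genes did not overlap between wildtype and AKHR +/- libraries for 4 of the 9 lists. Of all single genes tested, 5.82% separated the same libraries in this way. A sum can be carried by its most abundant gene, and the genes of each list were not set out singly. The summed level of 4 of 4 male accessory gland genes was 2441 to 2578 CPM in wildtype and 2072 to 2293 in the other 9 libraries. For 3 of 3 eye genes it was 8751 to 9203 against 7792 to 8150 CPM, and for 3 of 3 gut genes 2450 to 2631 against 1826 to 2300. The 6 of 6 testis and sperm genes lay on the other side, at 1611 to 1665 CPM in wildtype and 1687 to 1946 in the others. No marker found was at 0. The 3 yolk protein genes of the female fat body summed to only 11.97 to 18.01 CPM. In whole flies, fewer cells of a type and less RNA per cell cannot be told apart, and the part of these markers in the changes of the members was not tested.

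Changes were next set out by class. Of the 16 antisense RNAs, 12 had a positive log2 change over the 3 AKHR +/- groups, with a median of 0.23, against a median of -0.01 over all genes tested. A positive change was found in 47 of the 98 members and in 5919 of the 12809 genes tested. An unadjusted edgeR p under 0.05 was met by 4 of the 16, or 25%, beside 14.6% of all genes tested and 20.05% of those on 2L. The direction of the class was not tested. Of these antisense RNAs CR43464 was the one that passed. The next were CR43820 at 0.68, inside qtc, CR43866 at 0.57, inside Gal, and CR31845 at 0.52, inside CG9008. The genes they overlap had log2 changes of -0.15, 0.26 and -0.06, and no tested gene that overlaps a member passed in this comparison. The 11 pseudogenes had a median of 0.03, with CR43142 the one that passed. Levels of the small nuclear RNA and the let-7 complex transcript did not pass either. CR43708 had 3 to 17 counts per library, a range too low to resolve its log2 change of -0.25 (SE 0.382, edgeR adjusted p = 0.816). It lies wholly inside v(2)k05816 on the same strand, which had 75.4 FPKM against 3.64 for CR43708. In BDGP6 it lies in an intron of another gene. Whether its few reads include some from v(2)k05816 was not tested. CR43344 read 1.59, 1.94 and 1.79 CPM in wildtype and 0.856 to 1.76 in the other 9 libraries, a log2 change of -0.39 (SE 0.183, edgeR adjusted p = 0.337).

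Calls fell both among members that overlap another gene and among those that do not. Of the 53 overlapping no listed gene, 4 passed over the 3 groups together, or 7.55%. Of the 45 tested that overlap one, 2 passed, or 4.44%. The shares were 1.49% of all genes tested and 4.56% of those on 2L. The 2 include CR43821, whose place in the set depends on its rise. In the 47 pairs of a member and an overlapping gene, the member had the higher FPKM in 23, with a median of 90.3% of the partner's level. CR43803 had 18.7 FPKM inside beat-Ib at 1.59, and CR43752 had 39.3 FPKM inside Btk29A, a cytoplasmic tyrosine kinase gene, at 4.21. At the other end CR43866 had 0.353 FPKM inside Gal at 77.9.

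The midpoints of the 6 members that passed lie from -6.11 to 0.259 Mb from the midpoint of AkhR, where negative distances point to lower coordinates and the telomere. In bins chosen after the values were seen, 4 of 16 members lying more than 2.5 Mb to the telomere side passed, as did 54 of all 499 genes tested there. Within 2.5 Mb of AkhR 2 of 17 members and 30 of 628 genes passed. Of the members more than 2.5 Mb to the centromere side, 0 of 65 passed in edgeR and in DESeq2, and 28 of 1327 genes passed in edgeR. An unadjusted edgeR p under 0.05 was met by 6 of those 65 members and by 208 of the 1327 genes. Taking the first pair of these bins together, 6 of 33 members passed, or 18.2%, where 7.45% of all genes did. The median size of the change, without its sign, was 0.29 in log2 for these 33 members and 0.12 for the 65, beside 0.08 and 0.07 for all genes tested in the same stretches. Position was not tested.

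**Figure D4:**
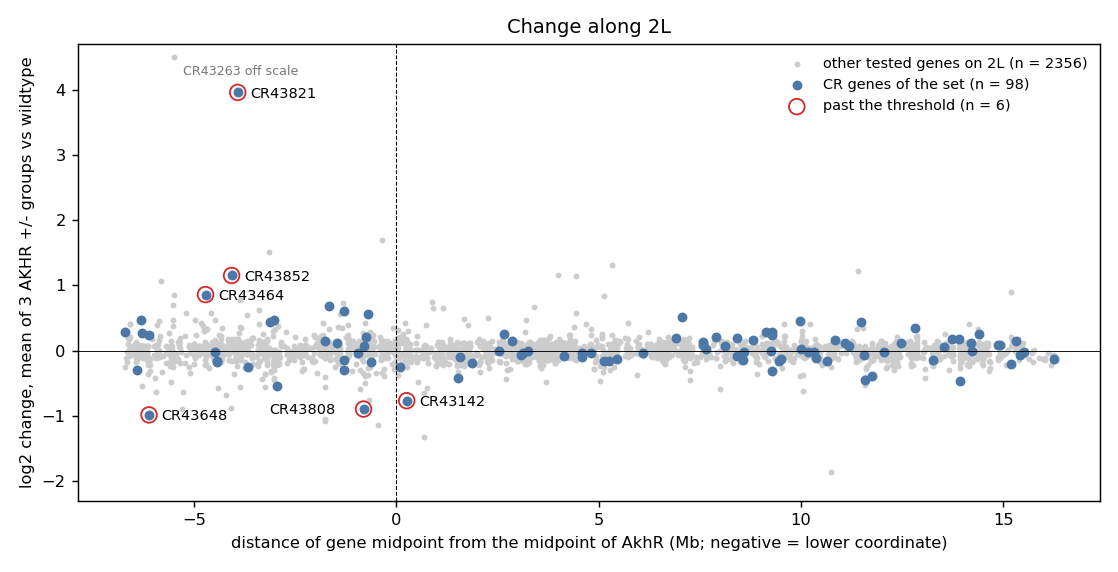
Log2 change of the mean of the 3 AKHR +/- groups against wildtype (vertical axis) by distance of the gene midpoint from that of AkhR in Mb (horizontal axis, dashed line at AkhR), for 98 CR genes of the set (blue) and the other 2356 genes tested on 2L (grey), with members past the threshold circled. All 6 circled genes lie between -6.11 and 0.259 Mb, and CR43263, left out of the set, lies beyond the plotted range and is drawn at its edge.

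Parental obesity was compared among flies of the same labelled genotype. No member passed in paternal against het flies, in maternal against het flies or in maternal against paternal flies. The shares of all genes tested that passed were 0.00781%, 0.0156% and 0.0156%. DESeq2 also called 0 members in each, with 0.0077%, 0.0154% and 0.0154% of all genes, and so did the blocked edgeR fit, with 0.00781%, 0.0156% and 0.0234%. An unadjusted edgeR p under 0.05 was met by 2, 2 and 4 of the 98 members, or 2.04%, 2.04% and 4.08%, against 2.11%, 4.15% and 2.75% of all genes. These comparisons share groups with each other. The median size of the members' change, without its sign, was 0.10, 0.11 and 0.12 in log2, against 0.15 to 0.17 in the comparisons with wildtype. Over all genes tested it was 0.04, 0.06 and 0.05 between these groups and 0.07 to 0.08 against wildtype.

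The members that came nearest are named for scale only. The pseudogene CR12628 (2L, positions 22226151 to 22226771) read 5.38, 4.99 and 5.98 CPM in het flies, 6.68, 6.535 and 6.30 in paternal and 7.46, 6.67 and 6.68 in maternal libraries, with wildtype at 6.06, 6.18 and 6.74. The het libraries were the 3 lowest of all 12. Its log2 difference from het was 0.35 in maternal flies (95% interval 0.13 to 0.57) and 0.26 in paternal flies (0.03 to 0.48), with edgeR adjusted p of 0.993 and 1. The antisense RNA CR31845 read 1.88, 1.69 and 1.43 CPM in maternal flies, against 1.88, 2.70 and 2.19 in het and 2.37, 2.45 and 1.99 in paternal flies. Its maternal minus het difference was -0.44 in log2 (95% interval -0.87 to -0.01, edgeR adjusted p = 0.993), and het replicate 1 lay at the level of the highest maternal library.

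CR43719, a long noncoding RNA inside Plc21C, a phospholipase C gene, stood at 4 ± 0.417 CPM in het and 3.27 ± 0.281 in paternal flies, a log2 difference of -0.29 (SE 0.132, edgeR adjusted p = 1). A pair of long noncoding RNAs were nearest the threshold between maternal and paternal flies. CR43242 stood at 8.88 ± 0.833 CPM in maternal and 7.11 ± 0.645 in paternal flies, a log2 difference of 0.32 (95% interval 0.04 to 0.60, edgeR adjusted p = 1). CR40465 stood at 8.84 ± 1.01 and 7.5 ± 0.208 CPM, a log2 difference of 0.24 (95% interval 0.02 to 0.46, edgeR adjusted p = 1). The 2 members that separated every AKHR +/- group from wildtype did not separate these groups from each other. For CR43142 the paternal minus het difference was -0.03 in log2 (95% interval -0.23 to 0.16) and the maternal minus het difference -0.00 (-0.20 to 0.19). For CR43821 they were -0.28 (-0.70 to 0.15) and -0.16 (-0.59 to 0.26). Differences inside these intervals remain compatible with the data from 3 libraries a group.

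Libraries of the same replicate number resembled each other for some members, whatever their group. In a fit of group plus replicate number, 2 of 98 members passed edgeR's test of the number, CR43808 (adjusted p = 0.00164) and CR17567 (adjusted p = 0.00947), against 4.3% of all genes. At an unadjusted p under 0.05 it was 12 members, or 12.2%, against 20.3% of all genes. CR43808 averaged 13.6, 18.7 and 14.8 CPM in numbers 1, 2 and 3. CR17567 averaged 388, 368 and 337 CPM, with 354, 408, 373 and 418 CPM in the wildtype, het, paternal and maternal libraries of number 1 and 322, 348, 341 and 338 in those of number 3. The call of CR17567 was lost without het replicate 3 or maternal replicate 3. The next smallest p were those of CR43819, at 2.003, 1.38 and 1.38 CPM by number (adjusted p = 0.0828), and of CR33319, at 62.2, 58.9 and 56.3 CPM (adjusted p = 0.0858).

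**Figure D5:**
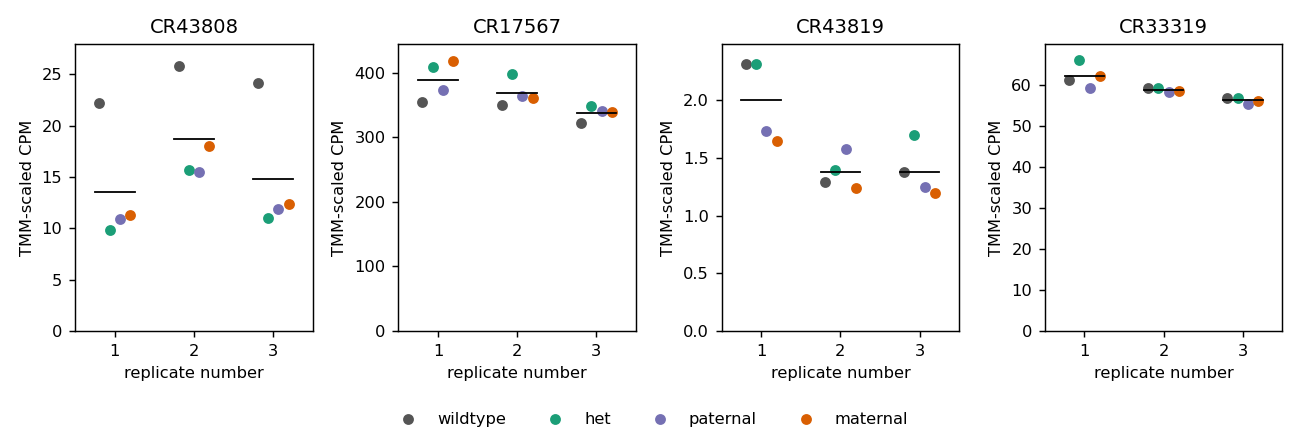
TMM-scaled CPM (vertical axes, from 0) of the 4 members with the smallest p for replicate number, by replicate number (horizontal axes), with 1 point per library coloured by group and a bar at the mean of the 4 libraries of that number. CR43808 is highest in number 2 within every group, and the wildtype libraries lie above the rest in all 3 numbers.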

How the data were processed

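The data are 5 gene tables of pairwise group comparisons. Per the file headers they hold read counts per gene and FPKM, both made by the authors, on D_melanogaster_Apr_2006 coordinates. Novoalign, DESeq and the dm3 build are named in the submitters' processing notes. Versions, annotation, strand setting and treatment of reads with several matches are not given in the sources available. The deposited rlog values, fold changes, adjusted p-values and exon columns were not used. Gene model lengths are the total bases listed by the authors in the deposited tables.

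Tables were joined by gene identifier, with 0 disagreements between tables. This gave 13040 genes, and 58 without counts in all 12 libraries were left out. The deposited counts entered edgeR 4.0.16 (R 4.3.3) with TMM scaling, filterByExpr (count of 10, total of 15) and a robust quasi-likelihood fit of 4 group means. P-values were adjusted by Benjamini-Hochberg over 12809 genes, with a threshold of 0.05. The 7 contrasts were the 6 pairs of groups and the equal-weight mean of the 3 AKHR +/- groups against wildtype. Standard errors come from the fit. The procedure was tested on simulated data. DESeq2 1.42.0, other scalings, no abundance filter, a fit of only the libraries compared, a replicate block and leaving out each library were alternatives. Names and classes came from RefSeq, and places from the BDGP6 annotation.

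Members named in the text are those past the threshold, the 6 of highest mean FPKM, the 2 of smallest p in contrasts with fewer than 2 calls, the 4 of smallest p for replicate number, and those beside the count floor. Others were named after their values were seen. The members and lists were chosen with earlier results of these data known.

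The titles carry replicate numbers 1 to 3, read as the sets that the series design describes. Deviations from group means correlated across genes at a mean r of 0.119 for same-numbered and -0.0592 for differently numbered libraries. Of 18 same-numbered pairs 11 were above 0.1, with a range from -0.0273 to 0.221. Of the 12 libraries, 11 correlated best with their own number.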

Additional observations from a re-analysis of the deposited data

How the results depend on the processing

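CR43821 and CR43142 kept their direction and passed in each comparison with wildtype under all alternatives that included them. None of the log2 changes recomputed under them, each in 1 or more comparisons for the 6 members that passed and for CR12628, CR43719, CR31845, CR43242 and CR40465, changed direction. Against wildtype, the number of members passing in het flies was 4 with DESeq2, 7 with the replicate block, 4 when only the libraries compared were fitted and 1 among members overlapping no listed gene. In paternal flies it was 4 with the replicate block, 4 with only the libraries compared and 1 among members overlapping none, and in maternal flies 5 with the replicate block and 1 among members overlapping none. The count among members overlapping none is lower because CR43821, which overlaps Syt1, does not enter. The cause of the others was not tested. Leaving out 1 library gave 2 to 4 members in het flies, with 4 without het replicate 2 or maternal replicate 1. It gave 2 to 3 in paternal flies, 2 to 3 in maternal flies, 2 to 7 over the 3 groups together and 1 to 3 for replicate number. Over all genes the same omissions gave 41 to 170, 33 to 154, 27 to 116, 63 to 360 and 240 to 1021 genes in that order. Over all genes, the block called 284, 206 and 227 genes in the het, paternal and maternal groups and 695 over the 3 groups together, where the fit without it called 76, 67, 44 and 191. DESeq2 called 121, 104, 89 and 245. With only the libraries compared the counts were 183 in het flies, 156 in paternal and 27 in maternal flies. Between AKHR +/- groups the block changed no member's call. Scaling moved the median log2 change of all genes by at most 0.02. With a median mean count of 41.5 per member, log2 differences had a median standard error of 0.19 between groups, which limits what can be detected.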
